A study of Mus musculus with 6 samples.

Results

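The cytosolic ribosomal protein genes were taken as the protein-coding rows of the deposited table whose symbol follows the Rpl or Rps naming pattern, including the stalk proteins Rplp0 to Rplp2 and Rpsa and without the S6 kinases and rows named as pseudogenes. This gave 86 of 23413 genes. They comprised 46 large subunit genes, 31 small subunit genes, 8 paralogs or retrocopies and Rps19bp1, which encodes a binding partner of Rps19 and not a ribosomal protein. The 77 subunit genes are called core genes here. Rack1 and Fau also encode proteins of the ribosome, but their symbols fall outside the pattern, and they are described apart.

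The RNA came from bone marrow of wild-type mice, from hematopoietic stem cells sorted as F4/80 negative or as F4/80 positive. F4/80 is a macrophage surface protein encoded by Adgre1, and the title of the series concerns trogocytosis, the transfer of membrane between cells, linked to the receptor c-Kit. Each group had 3 libraries of 2000 to 5000 sorted cells, and the labels name no treatment for either group. The labels give neither age nor the number of animals behind the libraries, and the p-values then reflect only library-to-library variation, some or all of which may be technical.

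A ribosome is built from ribosomal RNA and about equal molar amounts of each ribosomal protein, most of which are present as a single copy in each particle. The large subunit forms peptide bonds and the small subunit reads the messenger RNA. Many ribosomal protein messengers begin with a run of pyrimidines, the terminal oligopyrimidine motif, through which mTOR signalling and Larp1 control their translation. Adult blood stem cells are known for a low rate of protein synthesis. Loss of 1 allele of certain ribosomal protein genes causes Diamond-Blackfan anaemia in humans, in which red cell precursors fail. Because the genome holds many processed pseudogenes of these genes, reads of a ribosomal protein messenger can also be assigned to such copies.

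Library totals lay between 18637526 and 21042379 counts, and a floor of 3 counts stood at 0.146 to 0.167 CPM, which covers counting error only. CPM is the count relative to the library total on a common scale, here with TMM factors. Of 9 stem cell markers, all were detected and 6 were called lower in F4/80 positive libraries by edgeR at an adjusted p below 0.05. Of all tested genes, 10.9% were called lower and 9.65% higher. Kit, Cd34 and Slamf1 were not called, with log2 fold changes of -0.26, 0.03 and 0.02. The summed level of the 9 markers was 4124 to 4988 CPM in negative and 2928 to 3208 CPM in positive libraries. All 10 macrophage markers were called higher in the positive group, with sums of 48.7 to 67.6 CPM against 328 to 733 CPM. All 6 cell division markers were also called higher, with sums of 806 to 1121 CPM against 2037 to 2291 CPM. Sums of erythroid, B cell and neutrophil markers overlapped between the groups, and negative replicate 2 had the highest neutrophil sum, at 719 CPM against 131 to 354 CPM elsewhere. The part of any of these markers in the ribosomal protein values was not tested, and in bulk RNA fewer cells of a type and less RNA per cell cannot be told apart.

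Sequences are shown for Rps27 and its paralogs, among which reads and levels are compared. Rps27, on chromosome 3, encodes a zinc-finger protein of the small subunit, and Rps27l, on chromosome 9, encodes a closely related protein whose gene is a known target of p53. Their coding sequences are shown in full, because the distance between them bears on whether short reads can be told apart. They are from GENCODE M21 transcripts, and capitals mark the bases that differ.
Rps27: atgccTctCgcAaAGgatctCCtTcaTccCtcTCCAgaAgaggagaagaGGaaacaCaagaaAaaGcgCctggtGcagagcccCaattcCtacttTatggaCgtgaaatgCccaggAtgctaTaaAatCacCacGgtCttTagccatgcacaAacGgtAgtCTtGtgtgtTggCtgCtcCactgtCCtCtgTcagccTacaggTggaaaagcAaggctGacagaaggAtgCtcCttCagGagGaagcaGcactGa
Rps27l: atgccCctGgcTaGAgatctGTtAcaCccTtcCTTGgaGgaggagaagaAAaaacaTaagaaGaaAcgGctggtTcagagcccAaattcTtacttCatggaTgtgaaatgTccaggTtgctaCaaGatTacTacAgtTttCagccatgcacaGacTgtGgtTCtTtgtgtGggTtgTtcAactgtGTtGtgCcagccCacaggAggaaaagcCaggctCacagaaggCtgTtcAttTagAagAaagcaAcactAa

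Rps27 and Rps27l differed at 61 of 255 coding bases (76.1% identity), and the longest stretch they shared was 11 bases. Rps27rt, a retrocopy on chromosome 9, had a coding sequence identical to that of Rps27 at all 255 bases. Reads from the coding part of Rps27 and Rps27rt therefore cannot be assigned to either gene, and their split in the table is uncertain. The start regions of the 3 genes are shown for the same reason. Each runs from 60 bases before to 20 bases after the start annotated by RefSeq in GRCm38.p6, and capitals mark the pyrimidine run at the start.
Rps27: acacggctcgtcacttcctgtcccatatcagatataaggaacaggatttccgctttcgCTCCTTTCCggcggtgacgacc
Rps27rt: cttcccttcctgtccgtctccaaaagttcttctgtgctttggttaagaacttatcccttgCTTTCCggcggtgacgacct
Rps27l: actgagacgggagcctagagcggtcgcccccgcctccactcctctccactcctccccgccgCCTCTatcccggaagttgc

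These windows lie at chr3:90213629-90213708 for Rps27, chr9:114982720-114982799 for Rps27rt and chr9:66946026-66946105 for Rps27l, on the minus, minus and plus strands of GRCm38.p6. The pyrimidine run had 9 bases in Rps27, 6 in Rps27rt and 5 in Rps27l, the last of which has another annotated start without such a run.

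The share of all counts taken by ribosomal protein genes did not separate the groups. In F4/80 negative cells the 86 genes held 2.86%, 3.21% and 2.98% of counts (replicates 1 to 3), and in positive cells 2.76%, 3.15% and 3.13%. The means were 3.02% ± 0.181 and 3.01% ± 0.218 (SD, n = 3 each), and the groups overlapped. This share is of the raw library total. After TMM scaling, which corrects for differences in composition, the summed level was 29380 ± 1752 CPM in negative and 30947 ± 2532 CPM in positive libraries (SD, n = 3 each), again with overlap.

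The balance between the subunits did not separate the groups either. Large subunit genes held 1.60%, 1.78% and 1.67% of counts in negative libraries and 1.54%, 1.76% and 1.73% in positive libraries. Small subunit genes held 1.21%, 1.37% and 1.26% against 1.17%, 1.33% and 1.35%. The ratio of large to small subunit counts was 1.32, 1.30 and 1.32 in negative and 1.31, 1.32 and 1.28 in positive libraries, with means of 1.31 ± 0.0109 and 1.30 ± 0.0199 (SD, n = 3 each). The difference of -0.00913 was smaller than either SD.

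The genes moved together from library to library inside each group. F4/80 negative replicate 2 was the highest library of its group for 69 of 77 core genes, while it was the highest for 34.0% of all tested genes. Positive replicate 1 was the lowest of its group for 73 of 77 core genes, against 34.2% of all tested genes. The median deviation of the core genes from the group mean was 0.11 in negative replicate 2 and -0.14 in positive replicate 1 on the log2 CPM scale, and it lay between -0.06 and 0.09 in the other libraries. Negative replicate 2 is also the library with the highest neutrophil marker sum, of which Mpo held 466 CPM and Elane 114 CPM. S100a8 and S100a9 held 65.1 and 74.2 CPM in this library. Whether the transcripts of these genes have a part in its ribosomal protein level was not tested.

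**Figure D1:**
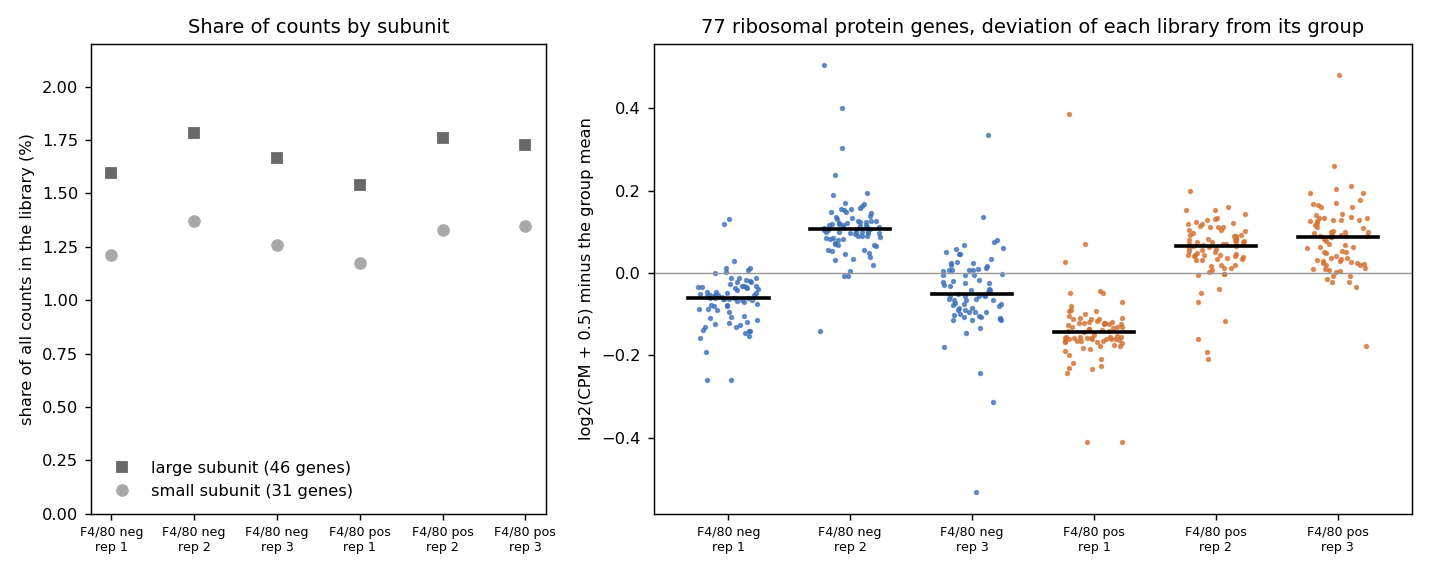
Left, share of all counts held by large subunit genes (squares) and small subunit genes (circles) in each library. Right, log2(CPM + 0.5) of each of the 77 core genes minus its group mean, with the median as a black bar. Shares overlap between the groups, and F4/80 positive replicate 1 lies below its group mean for nearly all core genes.

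Gene by gene, 82 of the 86 genes passed the filter on low counts and were tested with edgeR, and 3 were higher and 0 lower in F4/80 positive cells at a Benjamini-Hochberg adjusted p below 0.05 over all tested genes. In the background of 14451 tested genes 20.5% were called, 9.65% higher and 10.9% lower (1395 and 1572 genes, and 944 and 1956 without the composition factor). The 3 called genes were Rpl21, Rpl27 and the paralog Rps27l, so that 2 of 46 large subunit genes and 0 of 31 small subunit genes were called. At an unadjusted p below 0.05, edgeR found 13 of the 82 genes (15.9%), 5 of them in the small subunit, against 35.8% of all tested genes. DESeq2 called 5 higher and 1 lower, with 2 small subunit genes among them.

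Fold changes of the group were small. The median log2 fold change was 0.10 over the 82 genes, 0.11 in the large and 0.07 in the small subunit, and -0.03 over all tested genes. It was above 0 for 63 and below 0 for 19 of the 82 genes, a share of 76.8% above 0 against 47.1% of all tested genes. Only Rpl21 and Rps27rt of the 82 tested genes passed a size of 0.5 on the log2 scale (2.44%), against 29.7% of all tested genes. The SD of the log2 fold changes was 0.15 among these genes and 0.75 among all tested genes, and the median standard error was 0.09 and 0.16. The core genes ran from -0.15 to 0.58. Leaving out negative replicate 2, the library with high values, gave a median log2 fold change of 0.17 and 11 higher calls, where 9.67% of all tested genes were higher. Leaving out positive replicate 1, the library with low values, gave 0.16 and 4 higher calls, against 5.48% of all tested genes. The median went down to 0.06 without negative replicate 1 and without positive replicate 3, to 0.08 and 0.07 without negative replicate 3 and positive replicate 2, and to 0.03 without the composition factor, where the median of all tested genes was -0.10.

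The replicate numbers pair the libraries of the 2 groups over all genes, and a fit with the number as a block called more of the genes. With the block, 14 of the 82 genes were higher and 1 was lower, where 14.6% of all tested genes were higher and 16.8% lower. Of these, 8 were large subunit genes (Rpl5, Rpl8, Rpl15, Rpl21, Rpl27, Rpl28, Rpl29 and Rpl38) and 5 small subunit genes, among them Rps15 and Rps16. The others were Rps27l, higher, and Rps27rt, lower. With the block and a correction for gene length, 9 were higher and 3 lower (Rps27, Rps27rt and Rpl36), against 16.2% and 15.0% of all tested genes. Among the core genes themselves, deviations of same-numbered libraries correlated by -0.36, 0.08 and -0.14 across genes, against 0.21, 0.28 and 0.26 over all tested genes. These are correlations across genes, which are not independent replicates.

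The number of calls also rested on single libraries. Without negative replicate 1 there were 1 higher and 1 lower call. Rpl21 was the only call when negative replicate 3 was left out, and likewise for replicates 2 and 3 of the positive group. Negative replicate 2 and positive replicate 1 are given above.

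**Figure D2:**
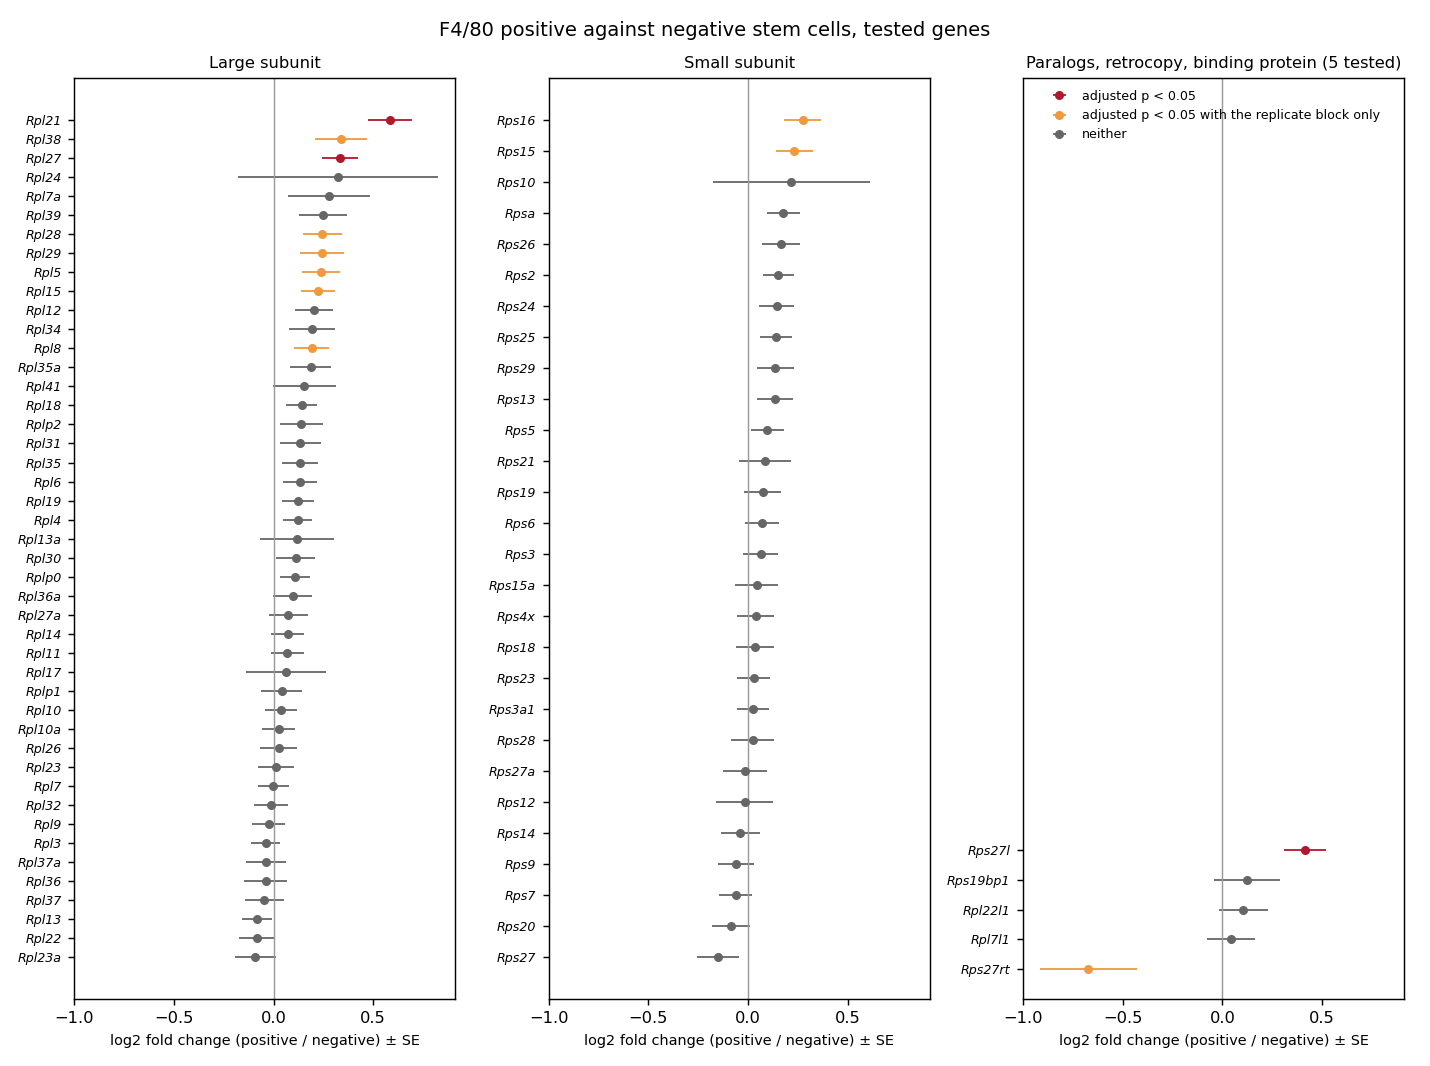
Log2 fold change (F4/80 positive over negative) with its standard error for the tested genes in 3 panels, by large subunit, small subunit and the others, with a few genes not shown. Red marks genes called by edgeR, and orange marks genes called only with the replicate block. All core genes shown but Rpl21, at 0.58, lie between -0.15 and 0.34.

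Rpl21 encodes a protein of the large subunit and showed the largest increase among the core genes. The gene lies on chromosome 5 at 146769700 to 146773842 of GRCm39, plus strand. It stood at 97.4, 110 and 96.6 CPM in negative replicates 1 to 3 and at 146, 135 and 174 CPM in positive replicates 1 to 3. All 3 positive libraries lay above all 3 negative libraries. The log2 fold change was 0.58 with a standard error of 0.11 (1.50-fold, edgeR adjusted p = 0.00862), and edgeR also called it when each library in turn was left out. Its own row may hold only part of its reads. By their annotated transcripts, 39 pseudogene rows align to its coding sequence, and they held 52.4% of the reads of gene and copies. Whether the reads in these rows came from Rpl21 was not tested. The copies together stood at 137 ± 8.96 CPM in negative and 142 ± 18 CPM in positive libraries (SD, n = 3 each), which overlapped. With the reads of these copies added, the log2 fold change was 0.30 (edgeR adjusted p = 0.0374).

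Rpl27 encodes a large subunit protein that is mutated in some patients with Diamond-Blackfan anaemia. It lies on chromosome 11 at 101333124 to 101336355 of GRCm39, plus strand. Its level was 154, 180 and 149 CPM in negative and 196, 202 and 210 CPM in positive libraries. The groups did not overlap, and the highest negative library was replicate 2. The log2 fold change was 0.33 with a standard error of 0.09 (1.26-fold, edgeR adjusted p = 0.0340). The call was lost without the composition factor (log2 fold change 0.26, adjusted p = 0.0715) and on leaving out any library but negative replicate 2, where the edgeR adjusted p reached 0.0714 to 0.106.

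Rps27l rose in F4/80 positive libraries, while its parent Rps27 was called neither without a block nor with the block alone. Rps27l, on chromosome 9 at 66853368 to 66856798 of GRCm39, plus strand, stood at 114, 135 and 108 CPM in negative and at 145, 163 and 166 CPM in positive libraries. No positive library overlapped with a negative library. The log2 fold change was 0.41 with a standard error of 0.11 (1.33-fold, edgeR adjusted p = 0.0265). Leaving out replicate 1 or 3 of the negative group, or replicate 2 or 3 of the positive group, ended the call (edgeR adjusted p = 0.0766 to 0.0908).

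Rps27, on chromosome 3 at 90119829 to 90120958 of GRCm39, minus strand, stood at 172, 190 and 209 CPM in negative and at 153, 170 and 191 CPM in positive libraries. The groups overlapped, and the log2 fold change was -0.15 with a standard error of 0.11 (edgeR adjusted p = 0.347), the lowest among the core genes. With the block and the gene length correction Rps27 was called lower, at -0.25 (adjusted p = 0.0176), and without negative replicate 3 or positive replicate 1 it was at -0.07. Rps27rt, on chromosome 9 at 114811434 to 114811807 of GRCm39, minus strand, stood at 21.4, 40.0 and 26.2 CPM in negative and at 15.5, 17.3 and 22.1 CPM in positive libraries. Positive replicate 3 lay above negative replicate 1, so these groups overlapped too. Its log2 fold change was -0.67 with a standard error of 0.24 (edgeR adjusted p = 0.0806), and with the replicate block it was -0.64 (adjusted p = 0.0356). It was also called without negative replicate 1 (log2 fold change -0.86, adjusted p = 0.0399), while without negative replicate 2, its highest library, it was -0.37 (adjusted p = 0.230). Since Rps27rt and Rps27 share their coding sequence, neither value is certain on its own.

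**Figure D3:**
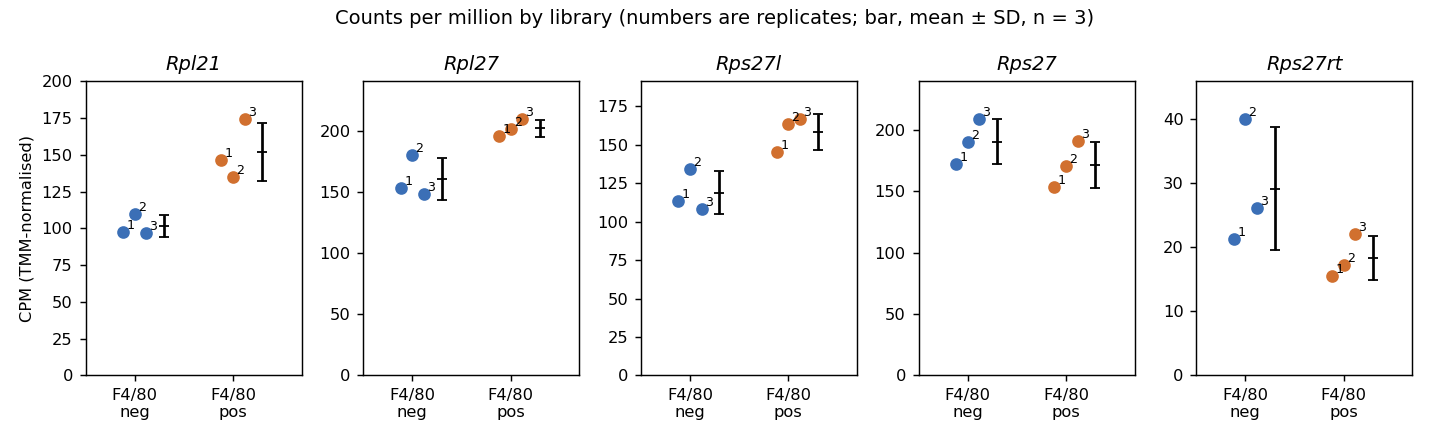
CPM of 5 genes in each library, numbered by replicate, with the mean and SD of each group (n = 3). The groups are apart for Rpl21, Rpl27 and Rps27l and overlap for Rps27 and Rps27rt.

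The summed level per length of the 3 Rps27 genes overlapped between the groups. Their summed FPKM, the count per kilobase scaled to library size, was 356, 453 and 398 in negative and 366, 407 and 449 in positive libraries. The means were 403 ± 48.7 and 407 ± 41.3 (SD, n = 3 each). Within that sum, Rps27l held 38.5%, 36.3% and 32.9% in negative and 48.5%, 48.8% and 45.7% in positive libraries. Every positive library lay above every negative library in this share, with means of 35.9% ± 2.86 and 47.7% ± 1.73 (SD, n = 3 each). The FPKM sum depends on the uncertain split between Rps27 and Rps27rt, because the table gives them lengths of 1043 and 374 bases. Summed CPM, which does not depend on that split, gave 338 ± 29.2 in negative and 348 ± 33 in positive libraries (SD, n = 3 each). Rps27l held 37.0%, 36.9% and 31.5% of it in negative and 46.2%, 46.5% and 43.8% in positive libraries, again without overlap. These sums were formed after the values of the single genes were seen, and no test was made on them.

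Paralogs were next compared with their parents as the log2 ratio of counts per kilobase, with a pseudocount of 0.5, for the 7 pairs in which both genes passed the filter. With 3 libraries in each group the exact 2-sided permutation test cannot give a p below 0.1. The log2 ratio of Rps27l to Rps27 was -0.24, -0.15 and -0.60 in negative and 0.27, 0.29 and 0.16 in positive libraries. The paralog thus stood at 79.6% of its parent in negative and at 118% in positive libraries, and the ratio was higher in the positive library of all 3 same-numbered pairs. The difference was 0.57 (exact permutation p = 0.1, adjusted over 7 pairs 0.35). With the block it was the same by construction. The sign-flip p was 0.25, the smallest value that 3 same-numbered pairs can give.

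The ratio of Rps27rt to Rps27 was -1.53, -0.77 and -1.51 in negative and -1.83, -1.82 and -1.63 in positive libraries, from 41.4% to 29.5% of the parent. All positive libraries were below all negative libraries, with a difference of -0.49 (exact permutation p = 0.1, adjusted over 7 pairs 0.35). Without negative replicate 2 the difference was -0.24.

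The ratios of the other pairs did not separate the groups. Rpl22l1, a paralog that Rpl22 is known to repress in mice, stood at 41.3% of Rpl22 in negative and 47.3% in positive libraries, with a difference in log2 ratio of 0.20 (exact permutation p = 0.4). Rpl7l1, a protein of ribosome assembly related to Rpl7, stood at 40.1% and 41.2%, with a difference of 0.04 (exact permutation p = 0.6). The rows Rps4l, Rpl6l and Rpl37rt, which the table classes as pseudogenes, differed from their parents by 0.02, 0.03 and -0.01 between the groups (exact permutation p = 1, 0.5 and 0.9). These pairs overlapped between the groups, which does not show that they are equal.

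**Figure D4:**
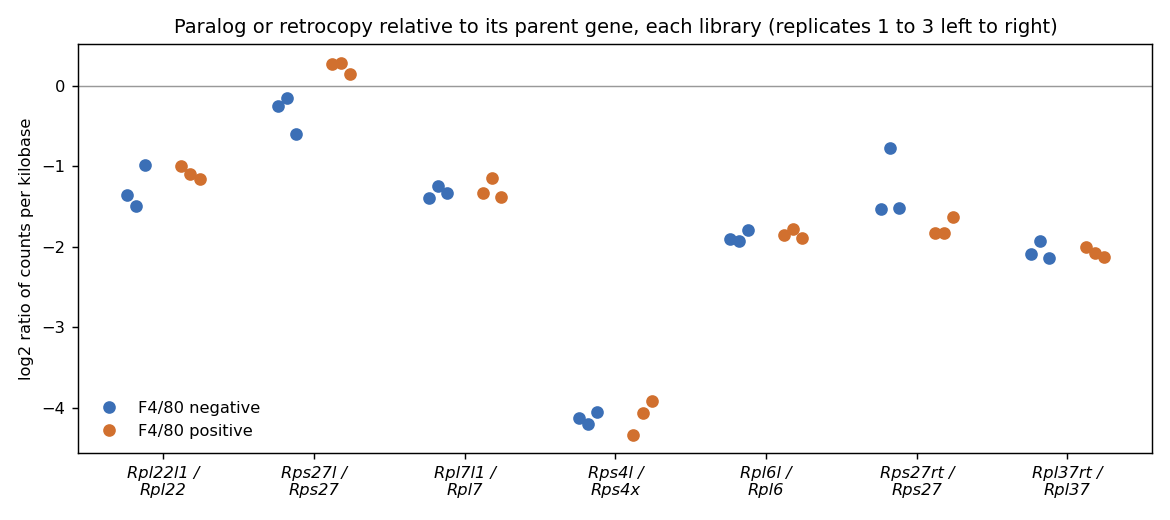
Log2 ratio of counts per kilobase of a paralog or retrocopy to its parent gene in each library for 7 pairs. Rps27l over Rps27 lies at -0.60 to -0.15 in negative and at 0.16 to 0.29 in positive libraries, and Rps27rt over Rps27 is lower in the positive libraries.

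The remaining paralogs were near the floor and were not tested. Rpl36al had 8, 8 and 7 counts in negative and 9, 18 and 20 counts in positive libraries, with 74.4% of the reads of gene and copies in pseudogene rows. Rpl3l, a paralog of Rpl3 known from heart and skeletal muscle, had 0 to 7 counts per library. Rpl39l, a paralog of Rpl39 known from male germ cells, had 0 to 6 counts, and Rps23rg1 had 0 to 2 counts.

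Rps16, a small subunit gene, was called with the replicate block. Rps16 stood at 284, 317 and 275 CPM in negative and at 315, 367 and 376 CPM in positive libraries, where positive replicate 1 lay just under negative replicate 2. Its log2 fold change was 0.27 with a standard error of 0.09 (edgeR adjusted p = 0.0634, and 0.0207 with the block). In the authors' deposited table, 5 of the ribosomal protein genes were higher at an adjusted p below 0.05, among them Rpl21, Rpl27, Rps16 and Rps27l, and Rps27rt was lower.

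In all, 4 of the 82 tested genes had every positive library above every negative library, among them Rpl21, Rpl27 and Rps27l, against 20.1% of all tested genes. No tested gene of the group had every positive library below every negative library, against 20.5% of all tested genes.

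The stalk of the large subunit, which recruits translation factors, is formed by Rplp0, Rplp1 and Rplp2, and 0 of the 3 was called. Rplp0 stood at 1353, 1511 and 1370 CPM in negative and at 1398, 1618 and 1548 CPM in positive libraries, with overlap and a log2 fold change of 0.11 (edgeR adjusted p = 0.341). Rplp1 had a log2 fold change of 0.04 (adjusted p = 0.810) and Rplp2 of 0.14 (adjusted p = 0.391). All 3 overlapped between the groups.

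Rpl5 and Rpl11 bind 5S ribosomal RNA and, when ribosome assembly is impaired, inhibit Mdm2, which stabilises p53. Rpl5 stood at 480, 547 and 446 CPM in negative and at 529, 632 and 573 CPM in positive libraries. Positive replicate 1 lay below negative replicate 2. The log2 fold change of Rpl5 was 0.24 with a standard error of 0.10 (edgeR adjusted p = 0.113, and 0.0174 with the block). Rpl11 was close to 0, with a log2 fold change of 0.07 (adjusted p = 0.582).

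Of a fixed list of 14 genes mutated in Diamond-Blackfan anaemia, Rpl27 was called higher and none lower. The list need not hold every such gene, and the values below depend on its choice. With the block 4 of the 14 were called higher, among them Rpl5, Rpl15 and Rpl27. Of all tested genes, 9.65% were higher without and 14.6% with the block. The median log2 fold change of the listed genes was 0.15. Of the 14, 13 were above 0, against 76.8% of all ribosomal protein genes tested and 47.1% of all tested genes. Rps19, the gene most often mutated in this disease, stood at 751, 882 and 858 CPM in negative and at 778, 892 and 953 CPM in positive libraries. The groups overlapped, with a log2 fold change of 0.07 (edgeR adjusted p = 0.606). Rpl15 had a log2 fold change of 0.22 (adjusted p = 0.0980, and 0.0310 with the block) and Rps26 of 0.17 (adjusted p = 0.257).

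Rps14, whose loss of 1 copy accounts for the red cell defect of the human 5q- syndrome, had a log2 fold change of -0.04 (edgeR adjusted p = 0.819). Rps6, the small subunit protein phosphorylated by S6 kinases, had 0.07 (adjusted p = 0.602). Rpsa, mutated in congenital absence of the spleen in humans, had 0.18 (adjusted p = 0.154). These 3 genes overlapped between the groups.

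Rpl38, Rpl28, Rpl29 and Rpl8 of the large subunit were called with the block and not without it. Rpl38, which in mice is needed for translation of a subset of Hox messengers, stood at 87.6, 114 and 91.0 CPM in negative and at 109, 122 and 139 CPM in positive libraries. Positive replicate 1 lay below negative replicate 2. Its log2 fold change was 0.34 with a standard error of 0.13 (edgeR adjusted p = 0.102, and 0.0337 with the block). It was also called without negative replicate 2 (log2 fold change 0.47, adjusted p = 0.0326). Rpl28, Rpl29 and Rpl8 had log2 fold changes of 0.24, 0.24 and 0.19 (adjusted p = 0.113, 0.155 and 0.151 without the block, and 0.0314, 0.0455 and 0.0416 with it). With the gene length correction added to the block, Rpl28 was called (0.21, adjusted p = 0.0486), while Rpl38, Rpl29 and Rpl8 were not, at 0.20, 0.15 and 0.12 (adjusted p = 0.120, 0.142 and 0.129). Rpl29 stood at 0.14 without positive replicate 2, and Rpl8 at 0.12 without the composition factor.

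Among the small subunit genes, Rps15 stood at 193, 216 and 185 CPM in negative and at 210, 252 and 235 CPM in positive libraries, and positive replicate 1 lay below negative replicate 2. The log2 fold change of Rps15 was 0.23 (edgeR adjusted p = 0.111 without the block, and 0.0283 with it). With the block and the gene length correction it was 0.10 (adjusted p = 0.227) and no longer called. At the low end of the core genes, Rps20 had a log2 fold change of -0.08 (adjusted p = 0.566) and Rpl23a of -0.09 (adjusted p = 0.557).

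Levels per length differed far more between the genes than between the groups. The median FPKM of the 77 core genes was 140 in negative and 154 in positive libraries, and 35 and 36 genes lay within 2-fold of that median. The highest mean FPKM over the 6 libraries belonged to Rps3a1 (1029), Rplp0 (880), Rpl32 (683) and Rpl4 (642). In the small subunit Rps3a1 was followed by Rps6 (544) and Rps2 (452). The lowest were Rpl24 (0.702), Rps10 (0.868), Rpl13a (6.90), Rpl7a (19.5), Rps12 (23.6) and Rps15a (23.8).

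FPKM depends on the gene length used, and for the core genes the length in the table was 1.20 to 16.0 times the coding length, with a median of 4.02. For Rps15a, the factor was the highest, at 16.0. How much the length and the assignment of reads add to these differences in level was not tested.

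Reads assigned to pseudogene rows were counted beside each gene. By alignment, 493 pseudogene rows matched the coding sequence of 75 members at 90% identity or more over at least 50% of its length. They held 0.248% ± 0.0118 of all counts in negative and 0.243% ± 0.0190 in positive libraries (SD, n = 3 each). In 7 genes the matching rows held over 50% of the reads of gene and copies, among them Rps10 (95.5%), Rpl24 (87.5%), Rpl17 (68.3%), Rpl7a (59.8%), Rpl23a (54.5%) and Rpl21 (52.4%).

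Rps10 stood at 2.0, 2.51 and 1.08 CPM in negative and at 1.77, 2.39 and 2.35 CPM in positive libraries, while its 2 copies stood at 41.4 ± 1.23 and 44.2 ± 3.87 CPM (SD, n = 3 each). Rpl24 stood at 0.488, 0.523 and 0.923 CPM in negative and at 1.18, 0.611 and 0.635 CPM in positive libraries. Its 3 copies held 4.81 ± 0.283 and 5.36 ± 1.28 CPM (SD, n = 3 each), so that gene and copies together were still low. Neither gene was called, with log2 fold changes of 0.22 and 0.32 and standard errors of 0.39 and 0.50 (edgeR adjusted p = 0.734 and 0.688). Rpl17 had a log2 fold change of 0.06 (adjusted p = 0.856), and its 19 copies stood at 112 ± 4.14 and 115 ± 18.1 CPM (SD, n = 3 each).

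**Figure D5:**
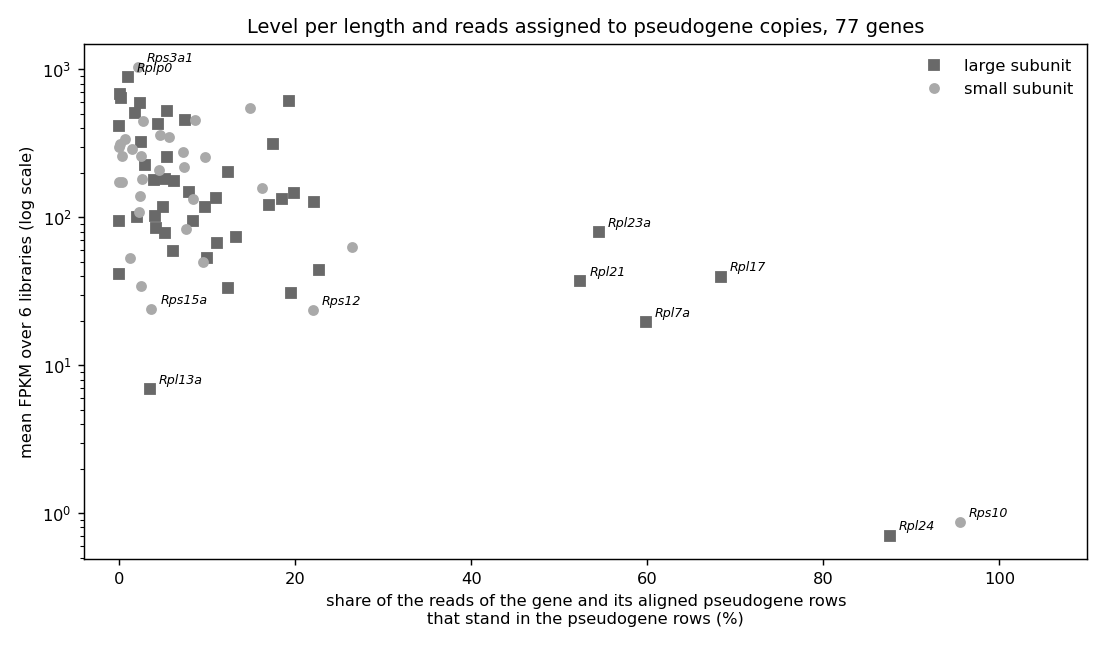
Mean FPKM over 6 libraries (log scale) of the 77 core genes against the share of reads of gene and aligned pseudogene rows that stand in the pseudogene rows. Rpl24 and Rps10, with copies at 87.5% and 95.5%, have the lowest FPKM, while Rpl13a is low with few reads in its copies.

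The promoter windows of RefSeq (GRCm38.p6, 250 bases before to 50 after the start) were searched for 57 core genes that have an entry. A C at the annotated start, within 3 bases, followed by at least 4 more pyrimidines was found in 22 of them (38.6%) and in 11.7% of 27025 genes. The motif CCGGAAG, bound by ETS factors, was found on either strand in 24 (42.1%) against 9.93% of all genes. AAGATGGC, a YY1 motif, was in 5 (8.77%) against 3.19%, and TATAAA was in 6 (10.5%) against 15.7%. The pyrimidine start was a property of the annotated start only, since starts were not mapped in these libraries.

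Core genes with the pyrimidine start had a median log2 fold change of 0.14 (22 genes, from -0.15 to 0.34) and those without it of 0.07 (35 genes, from -0.08 to 0.33). Both ranges overlapped almost fully. Of those with it, 0 were called and 3 were called with the block. Of those without it, 1 was called and 4 with the block. A split by the CCGGAAG motif gave similar medians, 0.13 with it (24 genes, from -0.06 to 0.34) and 0.07 without it (33 genes, from -0.15 to 0.33). Of the genes with CCGGAAG, 0 were called and 2 with the block, and of those without it 1 and 5. Whether either motif has a part in the fold changes was not tested. Of all tested genes, 20.5% were called, and with the block 14.6% were higher and 16.8% lower.

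Of the ribosomal proteins outside the naming pattern, Rack1 and Fau were not called. Rack1, a signalling scaffold on the small subunit, stood at 571, 623 and 491 CPM in negative and at 601, 718 and 665 CPM in positive libraries. The log2 fold change of Rack1 was 0.24 (edgeR adjusted p = 0.131, and 0.0351 with the block). Fau, a ubiquitin-like protein fused to a small subunit protein, had 0.08 (adjusted p = 0.616).

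Other messengers known for a pyrimidine start, which share this translational control, had a similar median. They are a fixed list, not chosen by the annotated-start rule applied to the core genes. Of 16 such genes, 1 was higher and 0 lower, against 9.65% and 10.9% of all tested genes. The median log2 fold change of the 16 was 0.11. The called gene was Hnrnpa1, a splicing factor, with 472, 430 and 379 CPM in negative and 571, 592 and 512 CPM in positive libraries (log2 fold change 0.39, edgeR adjusted p = 0.0235). Leaving out replicate 3 of the negative group, or replicate 1 or 2 of the positive group, ended this call (edgeR adjusted p = 0.0580 to 0.0760). With the block 3 were higher (Hnrnpa1, Npm1 and Eef1d) and 1 lower (Eef1a1), against 14.6% and 16.8% of all tested genes. Of 12 genes that regulate ribosomal protein translation, such as Mtor and Larp1, 0 were called in either direction. At an unadjusted edgeR p below 0.05 there were 2 of them, against 35.8% of all tested genes. With the block Larp4 and Mlst8 were higher, where 14.6% of all tested genes were.

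Among 6 chaperones dedicated to single ribosomal proteins or their assembly, 1 was higher and 0 lower, where 9.65% and 10.9% of all tested genes were. The called gene was Nap1l1, a histone chaperone whose yeast relative also binds Rps6. It stood at 219, 249 and 210 CPM in negative and 332, 340 and 329 CPM in positive libraries. The groups were well apart, with a log2 fold change of 0.56 (edgeR adjusted p = 0.00247). With the block, Ltv1, an assembly factor of the small subunit, was called as well, where 14.6% of all tested genes were higher.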

How the data were processed

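Counts per gene of 6 libraries were analysed from 1 table that the authors deposited for the whole series. Per the labels' protocols, a micro column kit gave total RNA and a SMARTer stranded kit gave the libraries. Per the submitters' processing notes, HISAT2 2.0.5, DESeq2 and the build GRCm39 (mm39) were used. Which counter, annotation and strand setting gave the counts is not given in the sources used here. The deposited counts are whole numbers and were the values tested. The deposited FPKM rest on the table's own gene lengths. The log2 fold changes and p-values deposited by the authors are quoted only as theirs. The normalized signal deposited by the authors was not used for any result. No value column belonged to other samples (0), and 0 rows lacked a name.

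Members and lists were chosen with earlier results of these data known. Counts were tested with edgeR 4.0.16 in R 4.3.3 (filterByExpr at 10 counts per library and 15 in total, TMM, glmQLFit and glmQLFTest, without covariates), with Benjamini-Hochberg adjustment over 14451 genes and a threshold of 0.05. CPM use TMM factors, and shares use raw totals. Standard errors were derived from the fold change and its F value. Summed counts by replicate were 20103661, 18649394 and 18863378 (negative) and 18969755, 18637526 and 21042379 (positive). Intervals and floors cover counting error only. Libraries of a group differed beyond sampling noise (chi-square per degree of freedom 11.0 to 22.9). This cannot tell biological from technical repeats, and no libraries were merged.

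Replicate numbers come from the labels, which also name the libraries 4, 5 and 7 in both groups. Deviations from group means correlated by 0.214, 0.284 and 0.256 between same-numbered libraries over all tested genes, each over 0.1, so the numbers were taken to pair the libraries. Blocked values are printed where they alter a call or shift the number of calls more than 1.5-fold.

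Genes named are the called members, the 4 highest and 4 lowest fold changes, the 5 highest and 3 lowest levels of each subunit, the paralog pairs, fixed members (stalk, 5S particle, Diamond-Blackfan anaemia and others) and called genes of the lists. Results for some of these are not reported here. Coding sequences of 86 members (GENCODE M21) were aligned with blastn 2.17.0 to transcripts of 2682 of 2710 pseudogene rows, keeping alignments of at least 90% identity over 50% of the coding sequence. The reference at hand is GRCm38, so its coordinates were kept apart from those of the table. Promoter entries matched 66 members. Alternatives were DESeq2 1.42.0, limma-voom (limma 3.58.1), RLE factors, no composition factor, no filter, a stricter filter of 50 counts in 3 libraries, the block with and without a gene length correction, leaving out each library, and adding pseudogene reads. The edgeR fit without a block, with it and with block and length correction, DESeq2 and limma-voom were run on simulated data. The simulation held no replicate effect and no length trend, and the other alternatives were not simulated.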

Additional observations from a re-analysis of the deposited data

How the results depend on the processing

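The median log2 fold change of the ribosomal protein genes stayed above 0 in all 16 alternatives, from 0.03 without the composition factor, where the median of all tested genes was -0.10, to 0.17. The share of counts and the ratio of large to small subunit counts moved by less than the spread between replicates in every alternative run. The number of calls moved more. DESeq2 called 5 ribosomal protein genes higher and 1 lower, 2 higher ones in the small subunit. RLE factors gave 1 small subunit call, and without the composition factor 1 large subunit gene was called. With the replicate block, 14 were higher and 1 lower (8 large and 5 small subunit genes higher), beside 2105 higher and 2429 lower of all tested genes. With the block and the gene length correction, 9 were higher and 3 lower, of which 5 and 1 in the large and 3 and 1 in the small subunit, beside 2337 higher of all tested genes. The cause was not tested. Leaving out 1 library at a time gave 1 to 11 higher and 0 to 1 lower calls, 1 to 5 large and 0 to 5 small subunit genes higher, and 656 to 1437 higher and 802 to 1612 lower of all tested genes.

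Several fold changes near 0 changed sign. Without the composition factor, the log2 fold change was -0.0343 for Rplp1, -0.0061 for Rpl11, -0.00089 for Rps19, -0.0049 for Rps6, -0.0338 for Rpl7l1 and -0.0120 for Rpl17. With the block and the gene length correction it was -0.106 for Rplp1 and -0.0294 for Fau. Rpl7 was at 0.0107 with DESeq2, 0.0066 with RLE factors, 0.0121 with no filter, 0.00017 with named pseudogene rows added and 3.9e-05 with sequence-matched rows added, an alternative chosen after seeing the data. On leaving out 1 library, it ranged from -0.0341 to 0.126 for Rplp1, from -0.106 to 0.0595 for Rps14, from -0.0537 to 0.0669 for Rpl7, from -0.0886 to 0.137 for Rpl7l1, from -0.0539 to 0.501 for Rps10, from -0.0425 to 0.675 for Rpl24 and from -0.0734 to 0.373 for Rpl17. The difference in log2 ratio between the groups ranged from -0.0301 to 0.0856 for Rpl7l1 to Rpl7, from -0.0774 to 0.132 for Rps4l to Rps4x, from -0.00076 to 0.0707 for Rpl6l to Rpl6 and from -0.0589 to 0.0459 for Rpl37rt to Rpl37. None of these was called.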

Other observations

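Copy rows of Rpl21 were also read singly. Rpl21-ps15, the copy row with the most reads (8641 counts over the 6 libraries, 99.4% identical to the coding sequence), stood at 74.7, 79.2 and 67.9 CPM in F4/80 negative and at 63.0, 83.4 and 77.9 CPM in F4/80 positive libraries, which overlap. Rpl21-ps8 (98.6% identical) stood at 12.9, 15.0 and 15.1 CPM in negative and at 16.6, 19.8 and 18.2 CPM in positive libraries, without overlap, and was not called (edgeR adjusted p = 0.132). Gm13370 and Gm15682 also had every positive library above every negative library. They were not called either (log2 fold changes 0.38 and 0.32, edgeR adjusted p = 0.182 and 0.319). Of all tested genes, 20.1% had every positive library above every negative library. The other tested copy rows overlapped between the groups. Among them, Gm12411 (99.2% identical) had a log2 fold change of -0.57 (edgeR adjusted p = 0.209). How reads were split among these rows is not given in the sources used here.

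Limits: 3 libraries per group, no statement of separate animals, and reads shared between genes and copies bound what the values of single ribosomal protein genes show. Coding sequences and start windows are from GRCm38 annotation while the counts are on GRCm39.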
